A study of Mus musculus with 10 samples.

Results

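The kinesin motor family was examined in 10 mouse thyroid tumours, as the 37 genes whose probe set carries 1 platform gene symbol beginning with Kif and a number, of 19938 genes measured on Affymetrix whole-transcript arrays. These genes have 42 probe sets, and where a gene has several, the one of highest mean intensity stands for it. The 37 genes were divided into 11 listed mitotic kinesins, 13 transport kinesins (subunits of the kinesin-1, kinesin-2 and kinesin-3 families) and 13 others. The others include Kif2a, which also acts at spindle poles, and Kif2b, both relatives of the mitotic Kif2c, so the split is not by role alone. The classes were set with earlier results of these data known. Total RNA came from 5 anaplastic thyroid carcinomas (ATC) labelled TPOCreER; BrafV600E; p53 -/- and from 5 papillary thyroid carcinomas (PTC) labelled TPOCreER; BrafV600E, all on a mixed C57BL/6;129SvJae background. Both groups therefore carry the mutant Braf and an inducible Cre under the thyroid peroxidase promoter, which is active in thyroid follicular cells, and histology and p53 genotype differ together. No source used here gives ages, or says whether other cells of the ATC mice also lacked p53. The labels call the tumours biological replicates without saying that each came from its own animal, so p-values measure the spread between these 10 samples. Values are log2 probe set intensities and differences are ATC minus PTC on the same scale. Means are given ± SD with n = 5 per group. Intensities of different probe sets are not comparable as levels, so only the same gene is compared between tumours.

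Kinesins are motor proteins that use ATP to walk along microtubules or to take their ends apart. Mitotic kinesins build the spindle, move and align chromosomes and complete the separation of daughter cells, and their transcripts are made mainly late in the cell cycle. Transport kinesins carry vesicles, organelles, RNA and ciliary components toward the periphery of non-dividing and dividing cells alike, and several are best known from neurons and from polarised epithelia.

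Mitotic kinesins were higher in ATC as a class, and transport kinesins went both ways. Of the 11 mitotic kinesins, 8 rose, 0 fell and 3 did not pass the threshold, a limma p under 0.05 after Benjamini-Hochberg adjustment for the 19938 genes tested, whereas 11.5% of all genes rose and 9.72% fell. Their median difference was 1.02, against −0.02 for all genes. Of the 13 transport kinesins 2 rose, 4 fell and 7 did not pass, with a median of 0.01. The mean over these 13 genes was slightly lower in every ATC tumour (8.140 to 8.287) than in every PTC tumour (8.294 to 8.343), a difference that was not tested. Of the 13 others 1 rose, 2 fell and 10 did not pass, with a median of −0.04. Over the whole family 17 of 37 passed in either direction, against 21.2% of all genes. The groups were separate, with ATC higher, for 5 mitotic, 1 transport and 1 other kinesin, and with ATC lower for 0 mitotic, 3 transport and 2 other kinesins, where 9.13% of all genes had every ATC value above PTC and 7.74% had every one below. Without ATC replicate 2 and PTC replicate 5, which an earlier analysis of these data set apart, 5 mitotic kinesins rose, and the calls of Kif11 (0.88, adjusted p = 0.0704), Kif15 (0.80, adjusted p = 0.0909) and Kif22 (0.49, adjusted p = 0.12) ended.

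**Figure D1:**
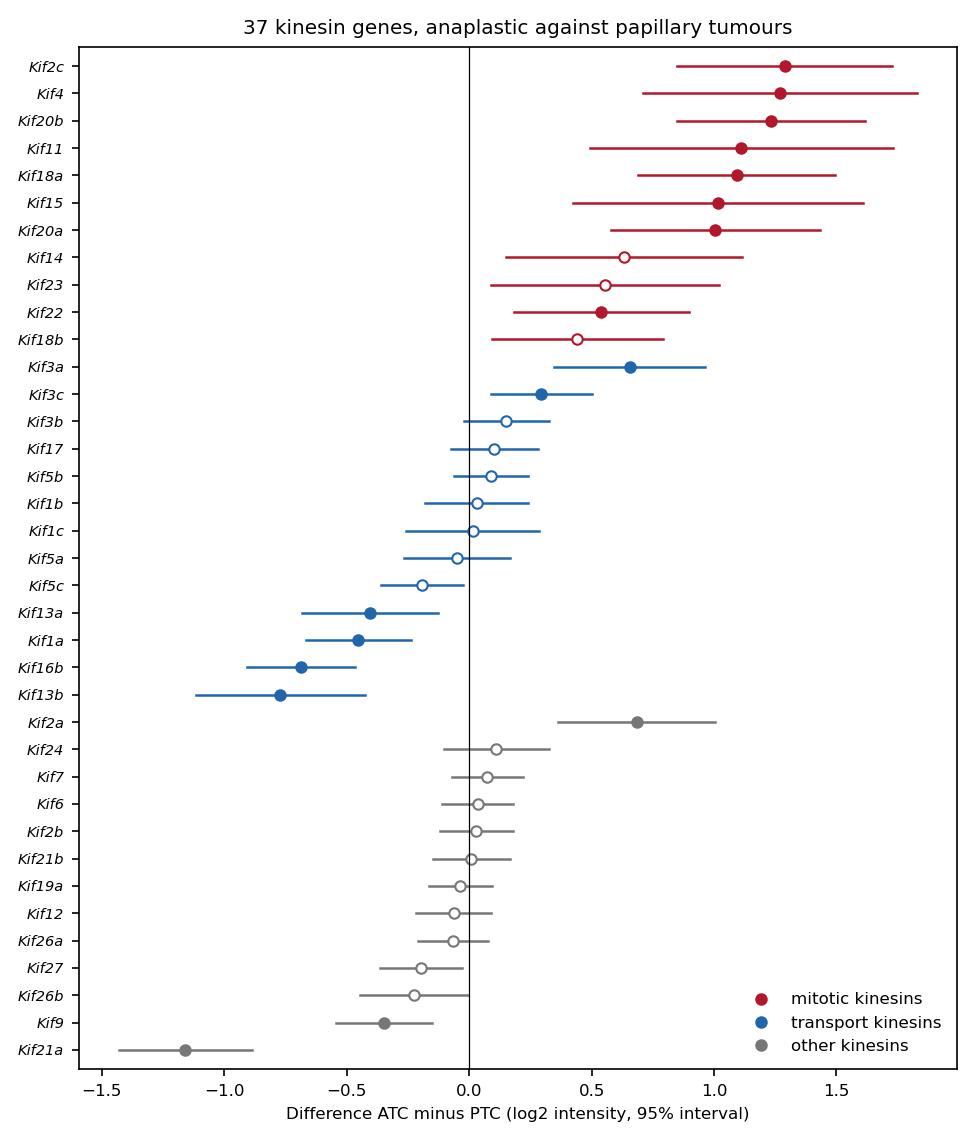
Difference ATC minus PTC in log2 intensity (horizontal axis) for each of the 37 kinesin genes (vertical axis), with 95% intervals from the limma fit. Filled points passed an adjusted p under 0.05 and open points did not. All 11 mitotic kinesins lie right of 0, from 0.44 to 1.29, while transport kinesins run from −0.77 to 0.66 and the others from −1.16 to 0.68.

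Among arrays, medians ran from 7.25 to 7.34, and ATC replicate 5 had a wider distribution and the lowest array weight (0.375). ATC replicate 2 lay nearest to the PTC arrays on the first principal component (56.8% of the variance). Of 11 thyroid follicular cell markers 0 rose and 4 fell, and their mean level was 6.55 to 8.03 in ATC and 7.79 to 8.97 in PTC. Macrophage markers all rose (8 of 8, median 1.47), with means of 10.43 to 11.24 in ATC and 8.98 to 9.48 in PTC. Of the markers of T cells 2 of 5 fell, of B cells 1 of 3, of endothelial cells 2 of 5 and of fibroblasts 2 of 6, with 0 that rose. Among all genes 11.5% rose and 9.72% fell. Fibroblast and endothelial lists were mixed: Pdgfra (1.17, adjusted p = 0.0848), Col1a2 (0.13) and Cdh5 (0.02) had positive estimates, and their other markers negative ones. The endothelial marker Pecam1 passed only narrowly (−0.40, adjusted p = 0.0499976). In the limma fit 0 of 2 parathyroid, 0 of 6 skeletal muscle and 0 of 4 adipocyte markers passed. This does not show that such tissue was absent, as levels varied widely within groups. Parathyroid means ran from 5.47 to 9.71 in ATC and from 5.62 to 10.24 in PTC. Skeletal muscle means ran from 7.07 to 8.15 in ATC and from 6.87 to 8.92 in PTC. In such bulk tumour RNA, more cells of a type and more RNA per cell cannot be told apart, and the part of the cell mixture in the differences below was not tested.

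Kif11 and Kif15, which hold the spindle poles apart, rose in ATC. Kif11, the bipolar plus-end motor that pushes spindle poles apart (probe set 10462796), was at 9.06, 9.84, 9.30, 8.09 and 9.79 in ATC replicates 1 to 5, against 8.25, 8.25, 8.17, 8.07 and 7.79 in PTC replicates 1 to 5. The ATC tumours other than replicate 4 lay above every PTC tumour, and ATC replicate 4 lay within the PTC range. The means were 9.22 ± 0.71 in ATC and 8.10 ± 0.19 in PTC (difference 1.11, 95% interval 0.49 to 1.73, adjusted p = 0.0163, 2.16-fold). Kif15, a motor that can keep spindles bipolar when Kif11 is blocked (probe set 10590494), was at 7.62, 8.36, 7.59, 7.07 and 8.70 in ATC replicates 1 to 5, against 6.81, 7.18, 6.96, 6.85 and 6.46 in PTC replicates 1 to 5. Again only ATC replicate 4 fell inside the PTC range, and ATC replicate 5 was highest (difference 1.02, 95% interval 0.42 to 1.61, adjusted p = 0.0205). The Kif15 call ended without PTC replicate 5 (0.92, adjusted p = 0.0502).

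Kif2c, a depolymerase that corrects wrong attachments of microtubules to kinetochores, had the largest difference of the class. Its probe set 10515431 read 8.04, 8.35, 7.92, 7.20 and 8.47 in ATC replicates 1 to 5, against 6.82, 6.60, 6.63, 6.86 and 6.61 in PTC replicates 1 to 5. The groups did not overlap, and ATC replicate 4 was closest to PTC (difference 1.29, 95% interval 0.85 to 1.73, adjusted p = 0.0012, 2.44-fold). Kif18a, which dampens chromosome movement at the metaphase plate (probe set 10474381), was at 8.87, 9.03, 8.77, 8.05 and 8.86 in ATC replicates 1 to 5, against 7.69, 7.86, 7.80, 7.57 and 7.19 in PTC replicates 1 to 5. The groups were separate, with 4 ATC tumours within 8.77 to 9.03 and ATC replicate 4 apart from them (difference 1.09, 95% interval 0.69 to 1.49, adjusted p = 0.00183). Its relative Kif18b, which acts on astral microtubules, was at 7.37, 7.75, 7.29, 7.21 and 7.94 in ATC replicates 1 to 5, against 7.41, 6.72, 7.13, 7.01 and 7.10 in PTC replicates 1 to 5. The groups overlapped, as PTC replicate 1 exceeded 3 of the ATC tumours (difference 0.44, 95% interval 0.09 to 0.79, adjusted p = 0.0732). Kif18b passed without ATC replicate 4 or without PTC replicate 1 (differences 0.52 to 0.53, adjusted p 0.0466 to 0.0478).

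The chromokinesins, which ride on chromosome arms and push them toward the spindle equator, differed by unequal amounts. Kif4, which also shortens microtubules of the midzone (probe set 10601011), was at 8.47, 8.81, 8.02, 7.41 and 8.99 in ATC replicates 1 to 5, against 7.01, 7.09, 7.11, 7.31 and 6.83 in PTC replicates 1 to 5. The groups did not overlap, although ATC replicate 4 at 7.41 was only just above PTC replicate 4 at 7.31 (difference 1.27, 95% interval 0.71 to 1.83, adjusted p = 0.00486, 2.41-fold). Kif22 (probe set 10568150) was at 7.67, 7.96, 7.76, 7.27 and 8.36 in ATC replicates 1 to 5, against 7.32, 7.11, 7.38, 7.29 and 7.23 in PTC replicates 1 to 5. ATC replicate 4 again lay inside the PTC range (difference 0.54, 95% interval 0.18 to 0.90, adjusted p = 0.0363). This call was close to the threshold: each fit that dropped ATC replicate 2, ATC replicate 3 or a PTC array lost it (differences 0.50 to 0.57, adjusted p 0.0564 to 0.0797).

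Kinesins of the central spindle and of cytokinesis, the final separation of daughter cells, included 2 that rose. Kif20a, which carries the chromosomal passenger complex to the midzone (probe set 10454709), was at 8.66, 9.10, 8.43, 7.92 and 9.11 in ATC replicates 1 to 5, against 7.66, 7.69, 7.67, 7.57 and 7.61 in PTC replicates 1 to 5. PTC tumours lay within 7.57 to 7.69 and each ATC tumour was higher (difference 1.00, 95% interval 0.58 to 1.43, adjusted p = 0.00403). Kif20b, needed for late cytokinesis (probe set 10462632), was at 8.84, 9.05, 8.59, 7.98 and 8.89 in ATC replicates 1 to 5, against 7.31, 7.61, 7.55, 7.46 and 7.27 in PTC replicates 1 to 5. The groups were clearly separate (difference 1.23, 95% interval 0.85 to 1.62, adjusted p = 0.000748, 2.35-fold), and it had the smallest p of the mitotic class. Kif23, a subunit of centralspindlin (probe set 10594251), was at 9.002, 9.73, 9.54, 8.51 and 9.48 in ATC replicates 1 to 5, against 8.87, 8.71, 8.65, 8.93 and 8.34 in PTC replicates 1 to 5. Kif14, which binds the midzone protein Prc1 (probe set 10350297), was at 7.52, 8.06, 7.46, 6.90 and 8.34 in ATC replicates 1 to 5, against 7.04, 7.12, 7.07, 6.94 and 6.95 in PTC replicates 1 to 5. In both, ATC replicate 4 lay within or under the PTC range while 4 ATC tumours lay above every PTC tumour. The differences were 0.55 for Kif23 (adjusted p = 0.089) and 0.63 for Kif14 (adjusted p = 0.0634), and without ATC replicate 4 they were 0.74 (adjusted p = 0.00872) and 0.82 (adjusted p = 0.00687). A second Kif14 probe set (10350329), at 3.96 to 4.18 in ATC and 3.92 to 4.02 in PTC, differed by 0.12 (adjusted p = 0.229 over all probe sets of 1 symbol).

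**Figure D2:**
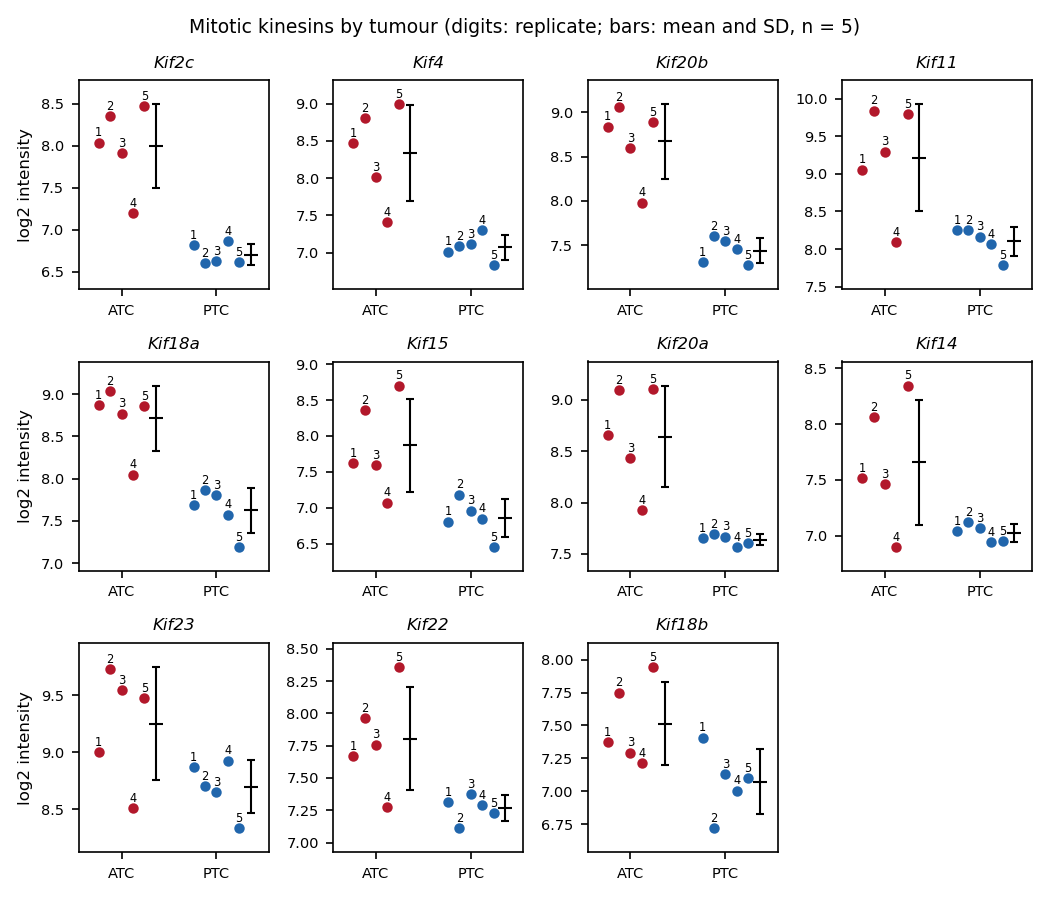
Log2 intensity of the 11 mitotic kinesins (vertical axes, scaled per gene and not starting at 0) in ATC and PTC tumours. Each point is 1 tumour with its replicate number, and bars give mean and SD (n = 5). ATC replicate 4 is the lowest ATC tumour in all 11 panels, and ATC replicate 2 or 5 is the highest.

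The lowest ATC tumour was the same for every mitotic kinesin, and the highest was one of the same pair. ATC replicate 4 was the lowest of the ATC tumours for 11 of 11 genes, ATC replicate 5 was the highest for 7 and ATC replicate 2 for 4. Relative to each gene's PTC mean, the median over the 11 genes was 0.95, 1.46, 0.85, 0.22 and 1.45 in ATC replicates 1 to 5, against 0.05, 0.06, 0.06, −0.0018 and −0.17 in PTC replicates 1 to 5. The mitotic kinesins thus covered more than 1 log2 unit among anaplastic tumours and about 0.2 among papillary ones. All 11 genes had the larger SD in ATC, as did 68.6% of all genes, with a median SD of 0.50 in ATC and 0.17 in PTC. ATC replicate 2 and ATC replicate 5 exceeded every PTC tumour for 11 of 11 genes, ATC replicates 1 and 3 for 10, and ATC replicate 4 for 5. Without ATC replicate 4, all 11 mitotic kinesins passed, and without any other single array 6 to 8 did. As ATC replicate 4 was the lowest ATC tumour for each gene, leaving it out had to raise every difference.

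**Figure D3:**
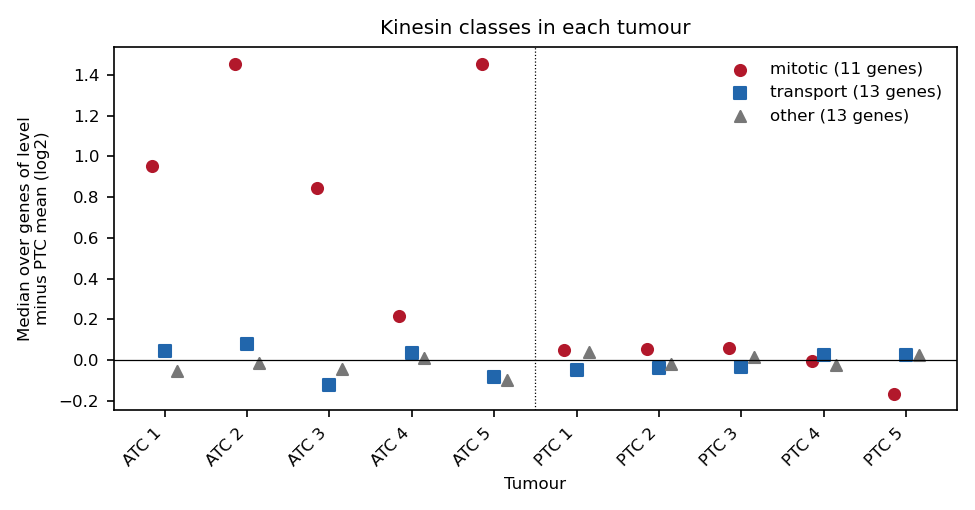
For each tumour (horizontal axis), the median over the genes of a class of the log2 level minus that gene's PTC mean (vertical axis). The mitotic median spreads from 0.22 to 1.46 over ATC tumours, whereas the transport and other medians stay between −0.12 and 0.08 in all 10 tumours.

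Most genes listed as acting with the mitotic kinesins also rose, where 11.5% of all genes rose and 9.72% fell. The lists of these partners were chosen with earlier results of these data known. Of 11 central spindle and cytokinesis partners 10 rose and 0 fell (median 1.00), led by Anln (1.82), a scaffold of the contractile ring, Ect2 (1.65), an activator of the GTPase RhoA, and Prc1 (1.31), which bundles midzone microtubules (adjusted p = 0.000288, 0.000925 and 0.00463). Of 12 spindle assembly partners 11 rose and 0 fell (median 0.99), led by Tpx2 (1.62), which activates Aurora A, Hmmr (1.56), a spindle adaptor, and the kinetochore gene Ndc80 (1.36), with adjusted p = 0.00102, 0.00714 and 0.003. Cenpe, the kinetochore kinesin whose symbol lies outside the pattern, was at 9.20, 9.54, 9.38, 8.41 and 9.66 in ATC replicates 1 to 5, against 7.67, 7.75, 7.80, 7.73 and 7.56 in PTC replicates 1 to 5. Its groups did not overlap (difference 1.53, 95% interval 1.11 to 1.96, adjusted p = 0.000425), and its estimate was above those of the 11 members. The spindle pole gene Numa1 was the 1 spindle assembly partner that did not pass (−0.27, adjusted p = 0.104), and the passenger complex gene Incenp the 1 central spindle partner (0.33, adjusted p = 0.0509), both named after their values were seen. The minus-end directed kinesins Kifc2 and Kifc3 differed by −0.13 (adjusted p = 0.292) and 0.03 (adjusted p = 0.838), and Kifc1 and Kifc5b, whose probe set carries several symbols, were not analysed here.

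ATC replicate 4 was also the lowest ATC tumour for general proliferation markers. Of 5 measured, 4 rose and 0 fell, where 11.5% of all genes rose and 9.72% fell, and this list too was chosen with earlier results known. Those that rose were Ccna2 (1.66), Top2a (1.30), Cdk1 (1.23) and Mki67 (0.78), while Pcna differed by 0.15 (adjusted p = 0.351). Mki67 was at 9.09, 9.80, 9.11, 8.55 and 9.98 in ATC replicates 1 to 5, against 8.59, 8.55, 8.57, 8.44 and 8.47 in PTC replicates 1 to 5. Only ATC replicate 4 lay inside the PTC range (difference 0.78, 95% interval 0.28 to 1.28, adjusted p = 0.0303). Mki67 no longer passed once ATC replicate 2, ATC replicate 5 or a PTC array was dropped (0.61 to 0.80, adjusted p 0.0538 to 0.066). ATC replicate 4 was the lowest ATC tumour for 5 of 5 proliferation markers, 11 of 11 central spindle partners and 10 of 12 spindle assembly partners, but for 3 of 13 transport kinesins.

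The promoters of mitotic kinesins shared a short sequence that most promoters lack. TTTGAA is the core of the cell cycle genes homology region (CHR), an element through which MuvB-containing complexes hold mitotic genes silent in resting cells and activate them late in the cell cycle, and CCAAT is the box bound by the factor NF-Y. RefSeq promoter windows (assembly GRCm38.p6, 250 bases before to 50 after the annotated start) were matched for 31 of the 37 genes, the others being Kif5a, Kif5b, Kif13b, Kif19a, Kif20a and Kif21b. On either strand, TTTGAA occurred in 9 of 10 mitotic kinesin promoters (90%), 1 of 12 transport promoters (8.33%) and 2 of 13 other promoters (15.4%), against 17.9% of all 32851 windows. CCAAT occurred in 60.0%, 33.3% and 38.5%, against 37.4% of all windows. Both occurred in 6 of the 10 mitotic promoters, against 6.95% of all windows. The matches lay close to the start: 7 of the 10 mitotic promoters had TTTGAA within 30 bases of it, against 2.90% of all windows, a window chosen after the positions were seen. The other classes have more windows than genes because some genes have several starts. The motifs can share at most 1 base, and no match of a kinesin promoter overlapped a match of the other motif. A match describes the letters only, and binding was not measured.

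The bases upstream of the start are given for the spindle motors Kif11 and Kif15 and the chromokinesin Kif22, whose matches lie just before the start, and for Kif16b, a transport kinesin that fell and has neither motif in its window. Capitals mark TTTGAA or its reverse complement TTCAAA, and CCAAT or its reverse complement ATTGG. The stretches are chr19:37376132-37376381, plus strand for Kif11, chr9:122950831-122951080, plus strand for Kif15, chr7:127042421-127042670, minus strand for Kif22 and chr2:142901465-142901714, minus strand for Kif16b, each of 250 bases written 5′ to 3′ on the gene's strand.
Kif11: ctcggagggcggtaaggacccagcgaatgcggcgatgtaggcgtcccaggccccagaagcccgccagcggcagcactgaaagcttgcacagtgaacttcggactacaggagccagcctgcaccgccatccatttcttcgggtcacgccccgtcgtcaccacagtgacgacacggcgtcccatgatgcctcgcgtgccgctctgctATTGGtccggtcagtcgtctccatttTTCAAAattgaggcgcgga
Kif15: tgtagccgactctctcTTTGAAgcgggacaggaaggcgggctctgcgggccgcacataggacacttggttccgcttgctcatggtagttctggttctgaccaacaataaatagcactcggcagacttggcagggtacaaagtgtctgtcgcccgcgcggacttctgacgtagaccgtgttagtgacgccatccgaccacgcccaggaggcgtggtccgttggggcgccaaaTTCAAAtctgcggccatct
Kif22: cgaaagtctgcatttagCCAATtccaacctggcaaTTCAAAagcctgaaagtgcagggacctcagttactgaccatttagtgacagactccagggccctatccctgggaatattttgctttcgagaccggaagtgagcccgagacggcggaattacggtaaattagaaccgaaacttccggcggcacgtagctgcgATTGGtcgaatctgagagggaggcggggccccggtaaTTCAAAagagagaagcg
Kif16b: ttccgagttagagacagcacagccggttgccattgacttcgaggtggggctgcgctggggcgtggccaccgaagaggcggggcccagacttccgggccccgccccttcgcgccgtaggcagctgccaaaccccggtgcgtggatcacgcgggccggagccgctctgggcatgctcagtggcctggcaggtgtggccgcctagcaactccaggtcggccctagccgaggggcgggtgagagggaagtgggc
In Kif11 the TTCAAA match spans positions −19 to −14 and ATTGG spans −45 to −41, counted back from the base before the start as −1. Kif15 has TTCAAA at the same positions, −19 to −14, and a further match in the other orientation at −234 to −229. Kif22 has TTCAAA at −17 to −12 with ATTGG at −54 to −50, and a second set farther upstream. The GC content was 62% for Kif11, 58% for Kif15, 52% for Kif22 and 70.4% for Kif16b. Of the 10 mitotic promoters only that of Kif18a, which rose by 1.09, had no TTTGAA in its window. The 6 with both motifs were those of Kif4, Kif11 and Kif22, which rose, and of Kif14, Kif18b and Kif23, which did not pass. Outside the class, Kif2a and Kif3c rose with neither motif in their windows, and Kif3a rose with CCAAT only. Whether the motifs go with the size of a difference was not tested.

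Among transport kinesins, all 4 that fell belong to the kinesin-3 family of vesicle motors. Kif13b, which carries the scaffold Dlg1 and phosphoinositide-containing vesicles (probe set 10415911), was at 7.92, 8.19, 7.64, 8.05 and 8.62 in ATC replicates 1 to 5, against 8.77, 8.79, 8.68, 8.96 and 9.07 in PTC replicates 1 to 5. The groups did not overlap, but ATC replicate 5 came within 0.1 of the lowest PTC tumour (difference −0.77, 95% interval −1.12 to −0.43, adjusted p = 0.00519, 1.71-fold lower). Kif16b, a motor of early endosomes (probe set 10488156), was at 7.74, 8.11, 7.78, 8.06 and 8.08 in ATC replicates 1 to 5, against 8.47, 8.59, 8.62, 8.68 and 8.85 in PTC replicates 1 to 5. All ATC values lay below all PTC values, by a clear gap (difference −0.69, 95% interval −0.91 to −0.47, adjusted p = 0.000881, 1.61-fold lower), and it had the smallest p of the transport class. Its promoter is the one printed above without either motif.

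Kif1a and Kif13a also fell. Kif1a, the motor of synaptic vesicle precursors in neurons (probe set 10356712), was at 6.86, 6.95, 6.83, 6.99 and 6.56 in ATC replicates 1 to 5, against 7.34, 7.39, 7.44, 7.20 and 7.09 in PTC replicates 1 to 5. The groups were separate and ATC replicate 5 was lowest (difference −0.45, 95% interval −0.67 to −0.24, adjusted p = 0.00728). Of 10 neuron markers 4 rose and 0 fell, with means of 6.99 to 8.23 in ATC and 6.52 to 7.01 in PTC. Of 5 markers listed for C cells, the neuroendocrine cells of the thyroid, 0 rose and 2 fell. Their means were 6.60 to 7.38 in ATC and 6.97 to 7.83 in PTC, and Calca, also listed for C cells, was not matched. Among all genes 11.5% rose and 9.72% fell. The part of neurons and C cells in the Kif1a difference was not tested. Kif13a, which carries the mannose 6-phosphate receptor and recycling endosomes (probe set 10408975), was at 8.44, 8.35, 8.17, 7.95 and 8.63 in ATC replicates 1 to 5, against 8.55, 8.66, 8.66, 8.73 and 8.98 in PTC replicates 1 to 5. ATC replicate 5 overlapped the PTC range (difference −0.40, 95% interval −0.68 to −0.13, adjusted p = 0.0415). The Kif13a call ended without ATC replicate 1, 2, 3 or 4 or PTC replicate 2, 3, 4 or 5 (differences −0.44 to −0.32, adjusted p 0.0506 to 0.0924), as well as with arrays centred on the median (−0.37, adjusted p = 0.0688).

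The remaining kinesin-3 genes of the transport class, Kif1b and Kif1c, did not pass. Kif1b, a motor of mitochondria and synaptic vesicle precursors, was at 9.05 to 9.46 in ATC and 9.24 to 9.54 in PTC (difference 0.03, 95% interval −0.18 to 0.24, adjusted p = 0.863). Kif1c, known from transport along the long microtubules of migrating cells, was at 9.51 to 9.97 in ATC and 9.43 to 10.02 in PTC (difference 0.01, 95% interval −0.26 to 0.29, adjusted p = 0.953). Its second probe set (10377953) differed by −0.0021 (adjusted p = 0.989). The intervals of both genes lie within 0.3 log2 units of 0.

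Of the 4 kinesin-2 subunits, which form motors of cilia and of several vesicles, 2 rose (Kif3a and Kif3c), 0 fell and 2 did not pass. Among all genes 11.5% rose and 9.72% fell. Kif3a, the subunit that pairs with Kif3b or Kif3c (probe set 10376033), was at 9.62, 8.86, 9.30, 8.80 and 9.27 in ATC replicates 1 to 5, against 8.47, 8.53, 8.60, 8.56 and 8.41 in PTC replicates 1 to 5. The groups did not overlap, and ATC replicates 1, 3 and 5 stood above ATC replicates 2 and 4 (difference 0.66, 95% interval 0.35 to 0.96, adjusted p = 0.00684, 1.57-fold). Kif3c (probe set 10394158) was at 7.26, 7.09, 7.07, 7.01 and 7.30 in ATC replicates 1 to 5, against 7.10, 6.71, 6.69, 6.89 and 6.86 in PTC replicates 1 to 5. PTC replicate 1 lay among the ATC tumours (difference 0.29, 95% interval 0.09 to 0.50, adjusted p = 0.0459). The Kif3c call ended without ATC replicate 1, 2, 3 or 5 or PTC replicate 2, 3, 4 or 5 (differences 0.25 to 0.31, adjusted p 0.0564 to 0.113), which leaves Kif3a as the only transport kinesin that rose in those fits.

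Neither Kif3b, the other partner of Kif3a, nor Kif17 passed. Kif3b was at 9.53, 9.38, 9.22, 9.28 and 9.55 in ATC replicates 1 to 5, against 9.20, 9.20, 9.30, 9.32 and 9.19 in PTC replicates 1 to 5. ATC replicates 3 and 4 lay inside the PTC range and the other 3 ATC tumours above it (difference 0.15, 95% interval −0.02 to 0.33, adjusted p = 0.215). Kif17, the homodimeric kinesin-2 of neurons, was at 6.44 to 6.79 in ATC and 6.37 to 6.61 in PTC (difference 0.10, adjusted p = 0.425). Whether Kif3a and Kif3b differed from each other in response was not tested.

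None of the 3 kinesin-1 heavy chains, the general cargo motors, passed the threshold in the limma fit, against 21.2% of all genes, and 1 of the 3 (Kif5c) had an unadjusted p under 0.05 (0.0289). Kif5b, the chain made in most cells, was at 11.02, 10.98, 11.01, 10.93 and 10.83 in ATC replicates 1 to 5, against 10.74, 11.00, 10.82, 10.85 and 10.91 in PTC replicates 1 to 5. The groups overlapped over most of their range (difference 0.09, 95% interval −0.06 to 0.24, adjusted p = 0.42). The neuronal chain Kif5a was at 6.49 to 6.90 in ATC and 6.63 to 6.84 in PTC (difference −0.05, adjusted p = 0.78). Kif5c, also neuronal, was at 6.53 to 6.80 in ATC and 6.78 to 7.02 in PTC (difference −0.19, 95% interval −0.36 to −0.02, adjusted p = 0.104).

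Of 15 measured light chains and cargo adaptors 2 rose, 1 fell and 12 did not pass (median −0.04), a share of calls close to the 21.2% of all genes. Trak2, which links kinesin-1 to mitochondria, rose by 0.39, Rhot1, the mitochondrial receptor of that adaptor, rose by 0.25, and the light chain gene Klc3 fell by 0.30 (adjusted p = 0.0308, 0.0375 and 0.0113). The light chain gene Klc1 differed by 0.34 (adjusted p = 0.128) and passed without ATC replicate 4 (0.44, adjusted p = 0.0439). Of 15 cytoplasmic dynein and dynactin genes, which encode the minus-end motor and its activator, 3 rose, 0 fell and 12 did not pass (median 0.07), again a share close to that of all genes: Actr1a (0.39), Dync1li1 (0.32) and Dctn4 (0.29), with adjusted p = 0.0213, 0.041 and 0.0045. The Trak2 call ended without ATC replicate 1, 3 or 5 or PTC replicate 1, 2, 3 or 4 (0.33 to 0.39, adjusted p 0.0558 to 0.0734). Rhot1 lost its call without ATC replicate 1, 3, 4 or 5 or PTC replicate 1, 3, 4 or 5 (0.21 to 0.26, adjusted p 0.0598 to 0.0871). Actr1a lost its call without ATC replicate 1 or PTC replicate 3 or 5 (0.35 to 0.36, adjusted p 0.0504 to 0.0548). Dync1li1 lost it when ATC replicate 1, ATC replicate 5 or a PTC array was dropped (0.25 to 0.35, adjusted p 0.0567 to 0.0878). Rhot1 and Dync1li1 also missed the threshold with quantile normalization repeated (adjusted p = 0.066 and 0.0512), a robust fit with a variance trend (0.0623 and 0.0528) and array weights (0.0632 and 0.0519).

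Outside both classes, Kif21a had the largest fall of the family. Kif21a, a kinesin-4 protein that restrains microtubule growth at the cell cortex (probe set 10431659), was at 8.27, 8.52, 8.33, 7.77 and 8.27 in ATC replicates 1 to 5, against 9.34, 9.23, 9.40, 9.53 and 9.46 in PTC replicates 1 to 5. The gap between the groups exceeded 0.7 log2 units, and ATC replicate 4 was lowest (difference −1.16, 95% interval −1.43 to −0.89, adjusted p = 0.000192, 2.23-fold lower). It had the smallest p of the 37 genes. Its paralog Kif21b, known from neurons and lymphocytes, was at 6.87 to 7.10 in ATC and 6.90 to 7.14 in PTC (difference 0.01, 95% interval −0.15 to 0.16, adjusted p = 0.956).

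Kif2a rose and Kif9 fell. Kif2a, a depolymerase of spindle poles and of growing axons related to Kif2c (probe set 10412011), was at 10.59, 10.22, 10.56, 9.80 and 10.22 in ATC replicates 1 to 5, against 9.49, 9.75, 9.72, 9.66 and 9.34 in PTC replicates 1 to 5. The groups were separate, although ATC replicate 4 at 9.80 lay just above PTC replicate 2 at 9.75 (difference 0.68, 95% interval 0.36 to 1.00, adjusted p = 0.00674, 1.61-fold). Kif2b, the third member of that group, was at 6.10 to 6.32 in ATC and 6.13 to 6.29 in PTC (difference 0.03, adjusted p = 0.816). Kif9, a motor found in motile cilia and flagella (probe set 10589541), was at 7.14, 7.20, 6.84, 7.35 and 7.11 in ATC replicates 1 to 5, against 7.51, 7.52, 7.37, 7.48 and 7.50 in PTC replicates 1 to 5. The groups did not overlap, with ATC replicate 4 and PTC replicate 3 nearly touching (difference −0.35, 95% interval −0.55 to −0.15, adjusted p = 0.0175). Of 8 markers of motile ciliated cells 0 rose and 2 fell (median −0.17), where 11.5% of all genes rose and 9.72% fell. Their means were 6.49 to 6.64 in ATC and 6.65 to 7.01 in PTC, and the part of these cells in the Kif9 difference was not tested.

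**Figure D4:**
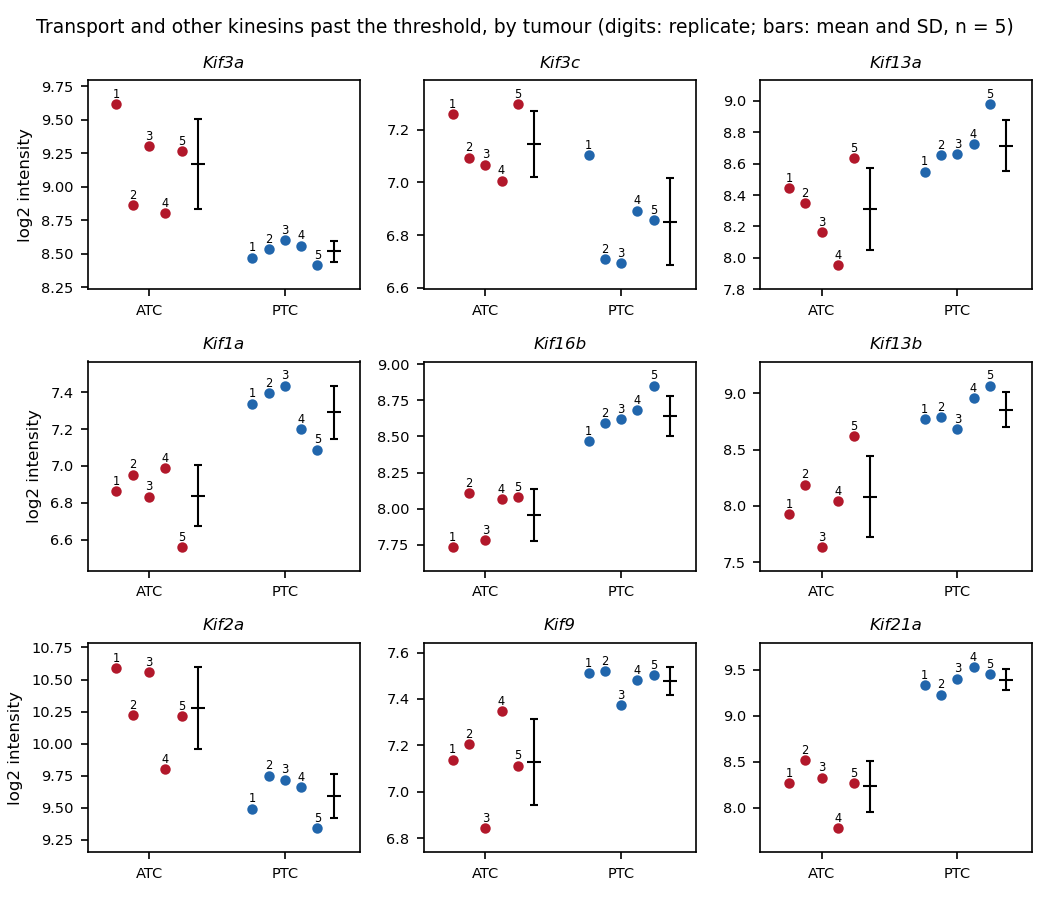
Log2 intensity of the 9 transport and other kinesins past the threshold (vertical axes, scaled per gene and not starting at 0) in ATC and PTC tumours. Each point is 1 tumour with its replicate number, and bars give mean and SD (n = 5). Kif21a, Kif16b, Kif13b, Kif1a and Kif9 lie lower in every ATC tumour, Kif3a and Kif2a lie higher, and Kif3c and Kif13a overlap.

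Other kinesins of cilia and centrioles outside the kinesin-2 family did not pass. Kif7, which regulates Gli proteins at the cilium tip in Hedgehog signalling, differed by 0.07 (95% interval −0.07 to 0.22, adjusted p = 0.496) and by 0.02 at its second probe set (10564791, adjusted p = 0.888), and its paralog Kif27 by −0.20 (adjusted p = 0.0915). Kif6 differed by 0.03 and the cilium length regulator Kif19a by −0.04 (adjusted p = 0.776 and 0.731), and the second Kif6 probe set (10445839) by −0.30 (adjusted p = 0.0761). Kif24, a depolymerase of the mother centriole, differed by 0.11 (adjusted p = 0.483).

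Of 10 genes of the Hedgehog pathway, in which Kif7 acts, 1 rose, 2 fell and 7 did not pass (median −0.00045), where 11.5% of all genes rose and 9.72% fell. The transcription factor gene Gli3 was at 8.86, 8.60, 8.77, 8.27 and 9.47 in ATC replicates 1 to 5, against 7.66, 7.29, 7.22, 7.19 and 7.37 in PTC replicates 1 to 5. The groups did not overlap (difference 1.45, 95% interval 1.04 to 1.86, adjusted p = 0.000453). The receptor gene Ptch1 fell by 0.51 (adjusted p = 0.0432) and Gli1 fell by 0.20 (adjusted p = 0.0442), and Smo differed by 0.35 (adjusted p = 0.434). The Ptch1 call ended without ATC replicate 1, 3 or 4 or PTC replicate 2, 3, 4 or 5 (−0.54 to −0.40, adjusted p 0.0562 to 0.0981). The Gli1 call ended without any 1 array other than ATC replicate 4 (−0.21 to −0.17, adjusted p 0.0515 to 0.102). With arrays centred on the median neither passed (adjusted p = 0.0638 for Ptch1 and 0.091 for Gli1), and Gli1 also missed with quantile normalization repeated (0.0744) and with a variance trend (0.0525).

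The last 3 members were Kif12, known from kidney and other epithelia, and the atypical kinesins Kif26a and Kif26b, which take part in signalling. Kif12 differed by −0.06 (95% interval −0.22 to 0.09, adjusted p = 0.587) and Kif26a by −0.07 (95% interval −0.21 to 0.08, adjusted p = 0.538). Kif26b differed by −0.23 (adjusted p = 0.141), and by −0.06 (adjusted p = 0.570) at its second probe set (10352143). The SDs of these 3 genes were 0.18 or less in either group.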

How the data were processed

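RNA of 5 ATC and 5 PTC tumours was hybridised to Affymetrix whole-transcript arrays, 1 array per tumour. The authors' deposited table holds 35556 probe sets, read as normalized log2 intensities from its range. Affymetrix Power Tools and limma are named per the submitters' processing notes, while no source used here states how background was corrected or probes summarised. Without detection calls, dim probe sets may show compressed differences. Precision is limited by having 5 arrays per group.

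Of the probe sets 21789 had 1 platform symbol, 1621 several and 12146 none here. Identifiers were matched to RefSeq genes (GRCm38.p6) for names only. The contrast of ATC over PTC was estimated by lmFit and eBayes (limma 3.58.1, R 4.3.3) without covariates over 19938 genes, two-sided, with Benjamini-Hochberg adjustment and 95% intervals. The fit was tested on simulated data with the same SD in both groups for each gene. It recovered 42% of changes of 0.5 log2 units, 78% of changes of 1 and 100% of changes of 2 or 3. Of its calls 5.33% were false. The simulation changed 50 genes at each of these sizes, a far smaller share than the 21.2% of genes called in the tumours. As the adjustment depends on that share, these recovery rates need not hold for the real fit. The larger SD of the mitotic kinesins in ATC was not part of the simulation.

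The members, the 9 gene lists and the 12 marker lists (168 of 181 entries matched) were chosen with earlier results of these data known. All kinesins were named. Of other genes, those of the lists of outlying kinesins and proliferation markers, the 3 largest differences of each further list and the called members of lists with 5 or fewer calls were named. The alternatives comprised the replicate number as a block, averaging a gene's probe sets, dropping genes under a mean of 6, repeating quantile normalization, centring arrays on the median, a robust fit with a variance trend, weighting arrays, and leaving out single arrays or 2 together. Replicate numbers were taken from the titles. The level of the deleted gene was not analysed here. Figures were drawn with Python 3.11.15 and matplotlib 3.10.9.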

Additional observations from a re-analysis of the deposited data

Results flagged for a closer look

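In 10 of 124 groups of 5 tumours checked by Dixon's test at 95% for kinesins and their named partners, 1 tumour lay far from the other 4, and chance gives about 1 in 20. ATC replicate 4 was low in 4 of these: Kif18a (8.05, others 8.77 to 9.03), Anln (9.35, others 10.23 to 10.56), Tpx2 (8.24, others 9.39 to 9.78) and Pcna (11.58, others 11.94 to 12.06). PTC replicate 5 was low for Cdk1 (7.26, others 7.54 to 7.6) and Dync1li1 (8.49, others 8.73 to 8.82) and high for Kif1b (9.54, others 9.24 to 9.29). ATC replicate 3 was low for Kif1b (9.05, others 9.36 to 9.46), ATC replicate 1 for Kif21b (6.87, others 7.04 to 7.10) and PTC replicate 3 for Kif9 (7.37, others 7.48 to 7.52).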

How the results depend on the processing

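Of the 17 kinesins that passed, 12 passed under all 18 alternatives (Kif1a, Kif2a, Kif2c, Kif3a, Kif4, Kif9, Kif13b, Kif16b, Kif18a, Kif20a, Kif20b and Kif21a), and 0 turned direction. Over the kinesins and the partners named by rule, which leaves out Numa1 and Incenp, 986 of 1115 refits kept direction and side of the threshold. Leaving out each array in turn, 6 to 11 mitotic, 4 to 6 transport and 3 other kinesins passed, with 1 to 2 transport kinesins higher and 3 to 4 lower, and 3253 to 4128 genes in all. Without ATC replicate 2 and PTC replicate 5 together, 5 mitotic kinesins passed, all of them higher, and 1 transport kinesin was higher. The median of the transport class was −0.08. The calls of Kif3c (adjusted p = 0.0989), Kif13a (0.12), Klc3 (0.0519), Mki67 (0.106), Ptch1 (0.0563), Gli1 (0.0974), Dync1li1 (0.059) and Rhot1 (0.0514) also ended there. Kif14 passed with array weights (adjusted p = 0.0286), and Kif18b with array weights, median centring or quantile normalization (0.0412 to 0.0495). With the replicate block, 7 mitotic, 6 transport and 3 other kinesins passed, and genes called came to 3762. It ended the calls of Kif22, Actr1a, Dync1li1, Gli1 and Rhot1 (adjusted p = 0.0587, 0.0541, 0.112, 0.0945 and 0.111) and of no other gene refitted. Same-numbered tumours share only a number here (correlations of their deviations from the group means, −0.09 to 0.12). Direction turned only for genes that had not passed: Kif19a with quantile normalization once more (0.023) and median centring (0.0039), Kif1b with quantile normalization (−0.023), Kif5a with quantile normalization (0.0078) and array weights (0.024), and Kif6 with the mean of probe sets (−0.13) and without PTC replicate 4 (−0.0031 to 0.059 over all single arrays). Kif1c turned with quantile normalization (−0.049), array weights (−0.021), the 2 arrays omitted (−0.089) and 4 of the single arrays left out (−0.073 to 0.086 over all 10), and Kif21b with array weights (−0.018), the 2 arrays omitted (−0.026) and 4 of the single arrays left out (−0.024 to 0.0497 over all 10). Kifc3 turned without ATC replicate 4 (−0.0083 to 0.083 over all single arrays). The cause was not tested. Dim probe sets limit what small differences can show.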
